A study of Saccharomyces cerevisiae with 14 samples.

Results

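The RNAs described here are the stable non-coding RNAs of budding yeast (Saccharomyces cerevisiae) that have probe sets on the Affymetrix YG_S98 array, a chip that measures each transcript with a set of short probes. They were taken by annotation alone, as every probe set of a gene whose symbol starts with SNR or RDN, or is SCR1, RPR1, NME1 or TLC1. This gave 80 of 9275 yeast probe sets. Of these, 42 read box C/D small nucleolar RNAs (snoRNAs) of 40 genes, 17 read box H/ACA snoRNAs of 17 genes, 4 read spliceosomal small nuclear RNAs and 13 read ribosomal RNA. Another 3 read RPR1 or TLC1, and 1 is shared by SCR1 and the protein-coding gene NTG1. The array also carries 10 control probe sets that read the 18S and the 25S ribosomal RNA, which were kept as a class of their own. The 80 probe sets stand for 69 genes, SCR1 included, of 5923 on the array.

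The study measured total RNA of strains that lived on a plasmid-borne histone gene and were grown in complete synthetic medium to mid-log phase. In H3del (4 arrays) the amino-terminal tail of histone H3 was deleted over residues 1 to 28, and H3WT (4 arrays) was the congenic strain with full-length H3. Both carried the H3 gene on a LEU2 plasmid and grew without leucine and uracil. In H4del (3 arrays) histone H4 lacked residues 2 to 26, and H4WT (3 arrays) was the congenic strain with full-length H4. These strains carried H4 on a TRP1 plasmid and grew without tryptophan and uracil. Separate cultures are not named for arrays of the same group. The p-values thus cover the spread among these arrays only, and that spread may be technical.

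Box C/D snoRNAs guide ribose methylation of ribosomal RNA and box H/ACA snoRNAs guide its pseudouridylation. A few of them, among them U3 and U14, are needed to cut the ribosomal precursor. Most yeast snoRNAs are made by RNA polymerase II, some as a run of several in the same transcript, and their ends are trimmed by nucleases that include the nuclear exosome. The 18S and 25S ribosomal RNAs are cut from the RDN37 transcript of RNA polymerase I, and 5S (RDN5) is made by RNA polymerase III. The mature forms of these RNAs carry no poly(A) tail. The sources used here do not give the primer of the labelling reaction, which decides whether RNA without a tail is read, so these signals cannot be assigned to mature or to tailed forms. With bulk RNA, a change in the number of transcripts and a change in how well they were labelled cannot be told apart.

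The deposited values are array signals on a linear scale. The 14 arrays had trimmed means between 1500.83 and 1501.18, so every value below is relative to the rest of the RNA on its array. Differences were tested with limma on log2 of the signal plus 16.9, and errors beside log2 fold changes are standard errors. A probe set was tested where its mean log2 signal exceeded 7.16, which 39 of the 80 probe sets did. These were 18 box C/D, 6 box H/ACA, 13 ribosomal and the 2 TLC1 probe sets. The other 41 were too dim, and their values come from a fit of all 9275 probe sets without the brightness filter. Nearest to the filter were SNR39 (7.21) and SNR13 (7.19) inside it, and SNR50 (7.13) and the SCR1 and NTG1 probe set (7.13) outside. Of the tested probe sets 6 would have been too dim without the H4del arrays, namely RDN18-1, the 3807_s probe set of RDN37-1, SNR68, SNR39, SNR13 and SNR41. Counts over the tested probe sets are therefore given beside those over all 80. All 13 ribosomal probe sets, and 20 of the 80 in all, are of a kind that the array's maker marks for shared or reduced specificity. Probe sets of different RNAs differ in sensitivity, so no level is set against another RNA's.

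The comparison of H4del with H4WT asked which RNAs change when the H4 tail is removed. In H4del most of these non-coding RNAs gave a higher signal. Of the 39 tested probe sets, 28 rose and 0 fell at an adjusted p of 0.05 (limma, 34 higher and 0 lower at an unadjusted p under 0.05), where 7.79% of all tested probe sets rose and 9.67% fell. Over all 80 without the filter, 53 rose and 0 fell, where 8.87% of 9275 probe sets rose and 6.73% fell (70 higher and 0 lower at an unadjusted p under 0.05). The fitted change was above 0 for 79 of the 80, with a median log2 fold change of 1.25, whereas the median of all probe sets was 0.05. For 67 of the 80 every H4del array was above every H4WT array, and 17.6% of all probe sets had that order.

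The rise was seen in each class of snoRNA and in ribosomal RNA. Of 42 box C/D probe sets 28 rose, with a median log2 fold change of 1.27, and of 17 box H/ACA probe sets 13 rose, with a median of 1.24. All 17 box H/ACA probe sets, and 34 of the 42 box C/D ones, had H4del arrays wholly above H4WT. Of 13 ribosomal probe sets 10 rose, with a median of 1.94, and of 4 spliceosomal ones 2 rose, with a median of 1.38. No TLC1 probe set rose.

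**Figure D1:**
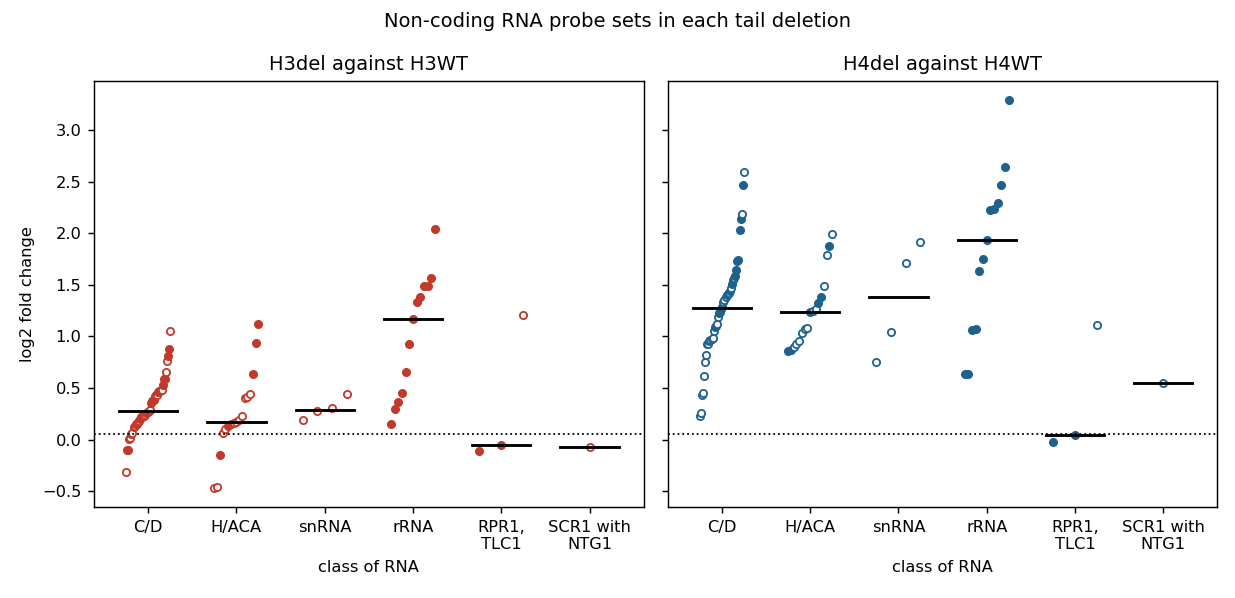
Log2 fold change of each of the 80 probe sets in H3del against H3WT (left) and H4del against H4WT (right), by class of RNA, from the fit without a brightness filter. Filled points passed the filter, bars are class medians and the dotted line is the median of all 9275 probe sets; in H4del the snoRNA medians lie at 1.27 and 1.24, in H3del at 0.27 and 0.17.

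Among the box C/D snoRNAs, U14 (SNR128), which base-pairs with 18S ribosomal RNA during its maturation, had the largest tested change. Its signal was 990.6, 942.2 and 1955.2 on H4del replicates 1 to 3, against 212.7, 222.8 and 185.9 in H4WT. The H4del arrays were all above the H4WT ones, replicate 3 highest among them. The log2 fold change was 2.47 ± 0.31 (adjusted p = 0.000144), and within hybridization days 2 and 4, which held both groups, it was 2.10 and 3.28. SNR190, the neighbour made with U14 in the same transcript, was near background, at 2.8, 29.0 and 2.0 in H4del and 1.6 to 2.5 in H4WT.

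Of the 18 tested box C/D snoRNAs 14 rose, U14 among them, where 7.79% of all tested probe sets rose. SNR39, SNR41 and SNR68 of these 14, and SNR13 of the 18, exceeded the filter only with the H4del arrays, which favours a rise. SNR71, a guide for 25S ribosomal RNA, had a signal of 491.0, 429.1 and 511.6 in H4del against 155.2, 101.6 and 140.2 in H4WT. The groups did not overlap, and the log2 fold change was 1.74 ± 0.22 (adjusted p = 0.000168). SNR4, a guide for cytidine acetylation of 18S ribosomal RNA, had 1369.2, 1234.9 and 1252.4 against 526.5, 454.0 and 438.7, a tight set of H4del values and a log2 fold change of 1.41 ± 0.25 (adjusted p = 0.00182). SNR61, another 25S guide, had 460.2, 828.8 and 829.1 against 217.4, 195.3 and 172.1. Its log2 fold change was 1.73 ± 0.29 (adjusted p = 0.00159).

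Of the other tested box C/D snoRNAs, SNR55, SNR70, SNR76, SNR39, SNR63, SNR75, SNR41, SNR68, SNR72 and SNR73 rose by 0.96 to 2.14 on the log2 scale. Without the day 4 arrays SNR63 moved from 1.54 to 0.98 and did not pass. Over the alternative fits listed below, SNR68 passed under 8 of 16, SNR41 under 11 of 16 and SNR75 under 11 of 17. SNR63 passed under 13 of 16 and SNR72 under 13 of 17, and the others of these more often. SNR13, SNR51, SNR67 and SNR77 did not pass, with log2 fold changes of 1.10 ± 0.58, 1.24 ± 0.42, 1.28 ± 0.44 and 0.93 ± 0.41. SNR13 had 115.5, 196.2 and 949.5 in H4del against 77.4 to 177.5 in H4WT, so its difference rested on replicate 3.

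Several box C/D snoRNAs below the filter had changes as large as these. They were singled out after their values were seen, and an offset of 16.9 lowers the fold change of such dim probe sets. SNR66, a 25S guide, had a signal of 241.3, 266.7 and 516.3 in H4del against 51.5, 39.2 and 29.1 in H4WT, and a log2 fold change of 2.60 ± 0.31 (adjusted p = 0.000119). All H4del arrays lay far above the H4WT arrays. SNR38, a 25S guide encoded in an intron of TEF4, had 100.7, 171.9 and 485.1 against 37.7, 13.4 and 55.3 (2.18 ± 0.49, adjusted p = 0.00894). U3 (SNR17A), needed for the first cuts of the ribosomal precursor, had 121.5, 102.3 and 161.7 against 20.3, 52.8 and 51.1, and rose by 1.35 ± 0.38 (adjusted p = 0.026). The smallest fitted changes of the class were those of SNR78 (0.23 ± 0.23), SNR58 (0.26 ± 0.27), SNR79 (0.43 ± 0.19) and SNR190 (0.45 ± 0.26), none past the threshold.

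Of the 6 tested box H/ACA snoRNAs 4 rose, where 7.79% of all tested probe sets did. SNR5, a pseudouridylation guide for 25S ribosomal RNA, had a signal of 1044.3, 847.1 and 673.4 in H4del against 252.2, 177.5 and 228.4 in H4WT. This was a log2 fold change of 1.87 ± 0.23 and the smallest adjusted p of all tested members (9.6e-05). SNR9, another guide of this class, had 557.4, 506.7 and 650.7 against 248.5, 174.6 and 235.5, with 1.32 ± 0.25 (adjusted p = 0.00321). The H4del arrays of both guides lay above every H4WT array.

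SNR11 rose by 1.39 ± 0.45 (adjusted p = 0.0459) and SNR33 by 0.86 ± 0.23 (adjusted p = 0.0204). They passed under 7 and 9 of 16 alternative fits. SNR44, encoded in an intron of RPS22B, had 1065.4, 2862.4 and 3355.5 against 822.9, 906.0 and 1016.5. Although no arrays overlapped, its change of 1.24 ± 0.42 did not pass (adjusted p = 0.0532), and neither did that of SNR8 at 0.87 ± 0.30 (adjusted p = 0.0605). Among the box H/ACA snoRNAs below the filter, SNR31 (1.99 ± 0.38), SNR46 (1.79 ± 0.45) and SNR34 (1.49 ± 0.26) had the largest changes, each past the threshold without it. In that fit 4 of the 17 did not pass, SNR32 (0.90 ± 0.39, adjusted p = 0.134), SNR44, SNR8 and SNR11, whose adjusted p was 0.0536 there.

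**Figure D2:**
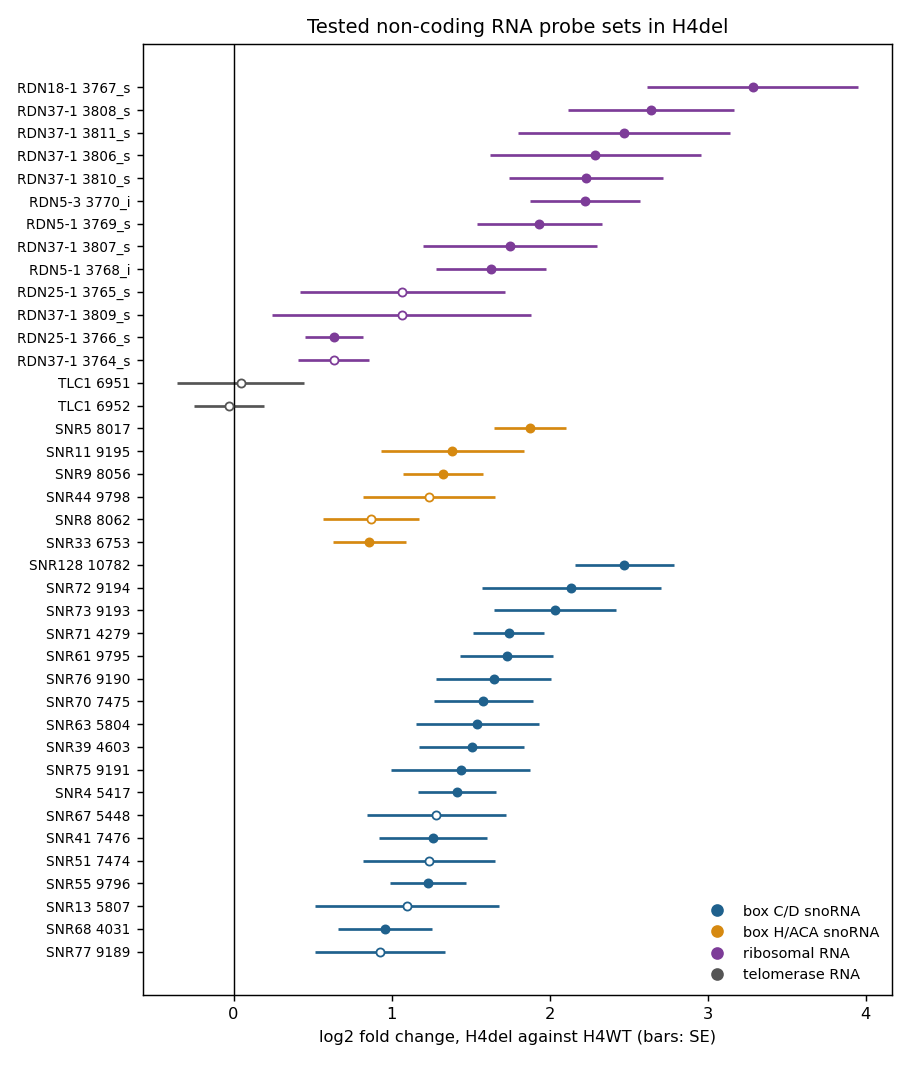
Log2 fold change with its standard error (bars) of the 39 tested probe sets in H4del against H4WT, grouped by class and ordered by size. Filled points passed an adjusted p of 0.05, and all but those of TLC1 lie at 0.64 or above.

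Ribosomal RNA probe sets rose over a wider range. RDN18-1, the 18S gene, had a signal of 556.2, 729.0 and 1643.1 in H4del against 168.2, 11.3 and 129.3 in H4WT. The lowest of these was H4WT replicate 2, and the groups did not overlap. The log2 fold change was 3.29 ± 0.67 (adjusted p = 0.00467), with 1.82 within day 2 and 3.51 within day 4. RDN18-1 exceeded the brightness filter only with the H4del arrays.

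For 5S, the 3769_s probe set of RDN5-1 had 17369.2, 14089.7 and 17370.2 in H4del against 7210.8, 4767.1 and 2188.7 in H4WT, and the 3768_i one had 29035.7, 32874.6 and 30225.4 against 14122.0, 10868.5 and 6296.2. In each the H4del arrays were close to each other and the H4WT arrays were not. The log2 fold changes were 1.94 ± 0.40 and 1.63 ± 0.35 (adjusted p = 0.00497 and 0.0062). RDN5-3 had 1435.3, 3995.2 and 1343.5 against 554.8, 328.2 and 376.3, a change of 2.22 ± 0.35 (adjusted p = 0.0008).

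The 7 probe sets of RDN37-1 read parts of the long precursor transcript, and the sources used here do not place them on it. Of these 5 rose, by 1.75 to 2.64 on the log2 scale. The smallest of these, that of 3807_s, was 1.06 and did not pass without H4WT replicate 2, and was 1.12 with the hybridization day as a block. This probe set exceeded the brightness filter only with the H4del arrays. Over the alternative fits listed below, 3807_s passed under 10 of 16, 3806_s under 12 of 17 and 3811_s under 13 of 17. The largest change was that of the 3808_s probe set, at 1295.6, 1367.0 and 2981.2 against 447.1, 97.7 and 405.0 (2.64 ± 0.52, adjusted p = 0.00415). The brightest, 3764_s, had 0.64 ± 0.22 (adjusted p = 0.0632) and 3809_s had 1.06 ± 0.82 (adjusted p = 0.404). The very bright 3766_s probe set of RDN25-1 had 22167.0, 20343.7 and 25297.5 against 16142.7, 12363.9 and 15238.2, a change of 0.64 ± 0.18 (adjusted p = 0.0274). It passed under 11 of 17 alternative fits. The other RDN25-1 probe set, 3765_s, had 1.07 ± 0.65 (adjusted p = 0.278), and its 2 groups overlapped.

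The control probe sets, which read the same 18S and 25S RNAs, moved the same way. Of the 10, 7 rose and 0 fell, with a median log2 fold change of 2.52. The 18S set e had 1291.1, 1741.8 and 2887.3 in H4del against 334.1, 52.2 and 234.3 in H4WT (3.37 ± 0.64, adjusted p = 0.00317). The 25S set c had 1475.7, 1868.0 and 1839.8 against 293.9, 78.7 and 187.4 (3.25 ± 0.46, adjusted p = 0.000399). H4WT replicate 2 was the lowest array in both. The brightest control, 25S set e, had 22449.3, 20706.6 and 23305.7 against 16655.5, 14106.9 and 14722.2, a smaller difference of 0.55 ± 0.19 that did not pass (adjusted p = 0.0594), although its groups did not overlap.

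**Figure D3:**
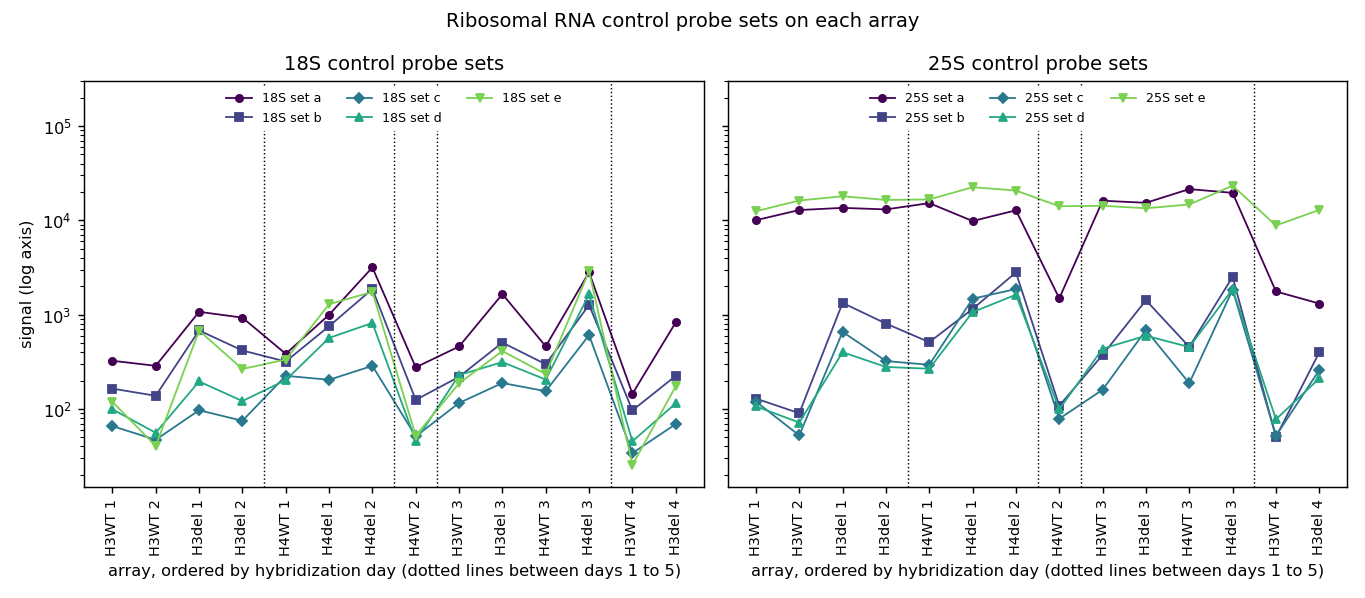
Signal (log axis) of the 5 control probe sets for 18S (left) and for 25S ribosomal RNA (right) on each of the 14 arrays, ordered by hybridization day. Of the 18S sets a, b, d and e, the H4del arrays lie above the H4WT ones, and 25S set a drops to 1311.2 to 1760.6 on the 3 arrays of days 3 and 5.

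The spliceosomal RNAs were too dim to be tested. U6 (SNR6) had 213.6, 216.5 and 291.6 in H4del against 91.4, 87.2 and 10.8 in H4WT, and U4 (SNR14), its partner in the spliceosome, had 116.5, 100.2 and 237.3 against 36.4, 14.8 and 49.7. Every H4del array of each was above every H4WT array. Without the filter they rose by 1.91 ± 0.59 and 1.71 ± 0.43 (adjusted p = 0.0408 and 0.0164). The long form of U5 (SNR7-L) had 0.75 ± 0.28 and U1 (SNR19), which pairs with the start of introns, 1.05 ± 0.45, and neither passed (adjusted p = 0.0846 and 0.129).

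TLC1, the template RNA of telomerase, had the smallest changes of the tested members. Its 6952 probe set had 992.6, 928.5 and 1237.9 in H4del against 954.1, 1521.2 and 832.0 in H4WT, and the arrays of the groups were interleaved. The log2 fold change was -0.03 ± 0.22, with a 95% interval from -0.50 to 0.44, and that of the 6951 probe set was 0.05 ± 0.40, from -0.81 to 0.90. RPR1, the RNA of ribonuclease P, had 324.7, 177.6 and 255.2 against 176.0, 98.2 and 64.8, a change of 1.11 ± 0.53 that did not pass (adjusted p = 0.176, no filter). The probe set shared by SCR1, the RNA of the signal recognition particle, and NTG1 had 0.55 ± 0.25 (adjusted p = 0.158, no filter), and cannot be assigned to either gene.

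**Figure D4:**
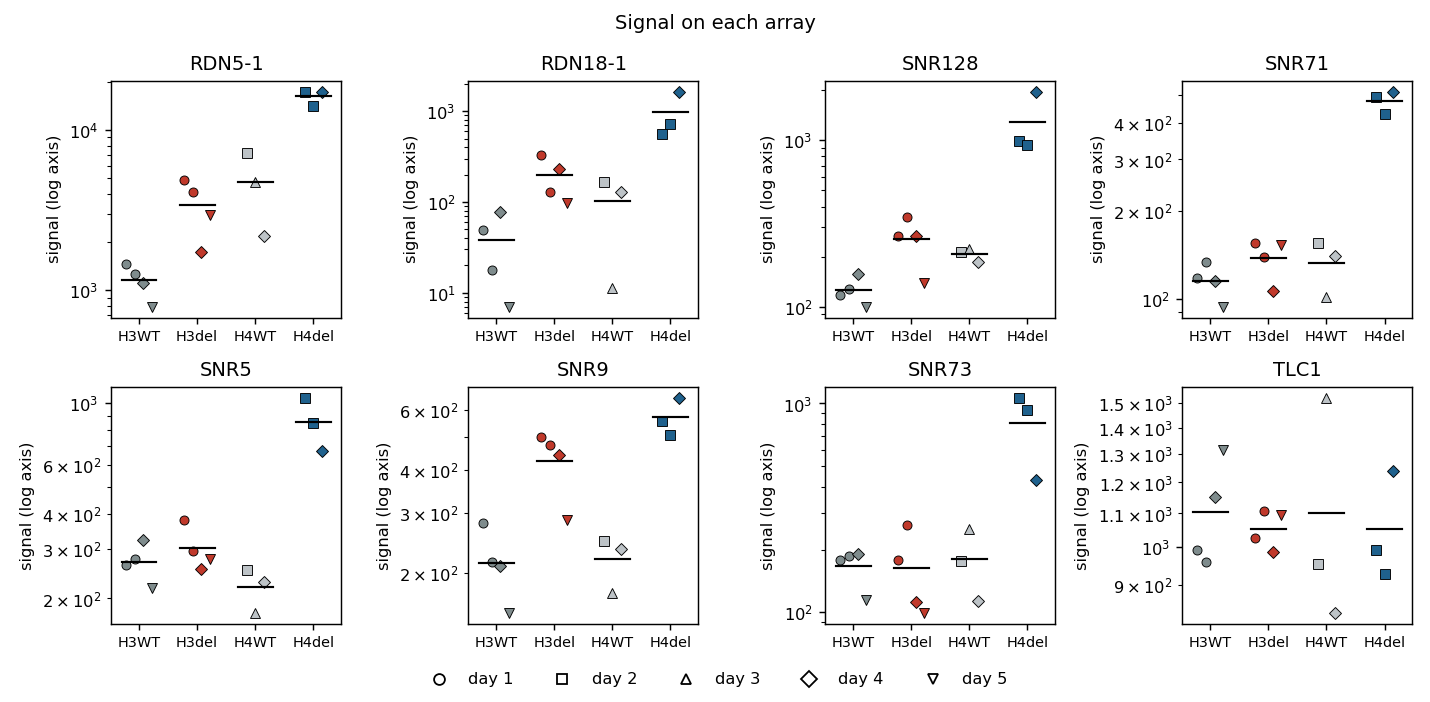
Signal (log axis) of 8 members on each array, by group, with the group mean as a bar and the hybridization day as the marker. RDN5-1 is shown by its 3769_s probe set and TLC1 by 6952; the H4del arrays lie above all others in the first 7 panels, narrowly so for SNR9, and are mixed with the rest for TLC1.

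A run of adjacent snoRNA genes had an order of arrays unlike that of most other snoRNAs in H4del. SNR78, SNR77, SNR76, SNR75, SNR74, SNR73 and SNR72 are 7 neighbouring genes in the RefSeq gene order, and yeast makes them as a polycistronic precursor. In H4del replicate 3 was the lowest array for 7 of 7, at a median of 0.422 times the mean of the other replicates. Of the other 35 box C/D probe sets, replicate 3 was instead the highest for 29, at a median of 1.87 times, and of the 17 box H/ACA ones it was the highest for 13, at 1.47 times. In H4WT replicate 3 was the lowest for 4 of the 7, at a median of 0.601 times, and in H3del for 3 of the 7, at 0.659 times. In H3WT it was instead the highest for 4 of the 7 and the lowest for 1, at a median of 1.18 times. Replicate 3 of all groups was hybridized on day 4, so replicate and day cannot be told apart here.

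SNR72, a methylation guide at the end of this run, had a signal of 4045.4, 3330.2 and 1169.7 in H4del against 763.2, 919.8 and 242.5 in H4WT. All H4del arrays were above all H4WT arrays, but each group's replicate 3 was far below its others. The log2 fold change was 2.14 ± 0.57 (adjusted p = 0.0185), while within day 2 and day 4 it was 2.24 and 2.19. SNR73 had 1063.2, 932.1 and 432.1 against 175.4, 250.4 and 113.4, with 2.03 ± 0.38 (adjusted p = 0.00299) and 2.40 and 1.78 within the days. SNR75 (1.44 ± 0.44) and SNR76 (1.65 ± 0.36) also rose, and SNR77 (0.93 ± 0.41) did not pass. SNR74 rose without the filter (1.56 ± 0.34), and SNR78 was near background.

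**Figure D5:**
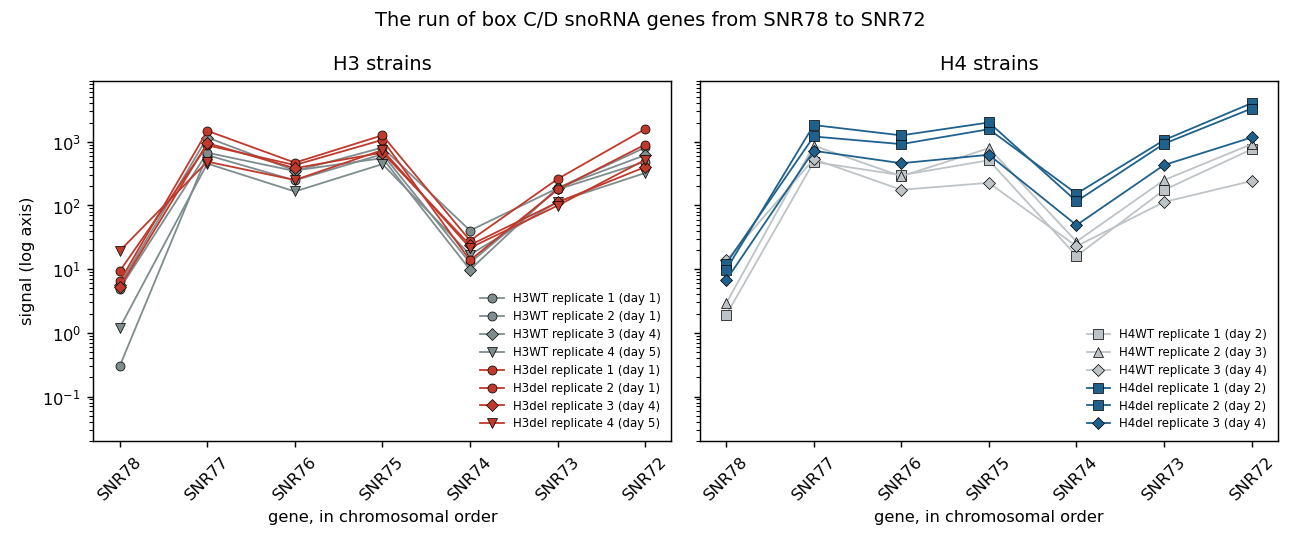
Signal (log axis) of the 7 adjacent snoRNA genes from SNR78 to SNR72 on each array of the H3 strains (left) and the H4 strains (right), with 1 line per array. In H4del the array of day 4 lies below those of day 2 at every gene.

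Of the other adjacent runs, SNR70 and SNR41 rose (1.58 ± 0.31 and 1.26 ± 0.34) and SNR51 next to them did not pass (1.24 ± 0.42, adjusted p = 0.0533). SNR55 and SNR61 rose (1.23 ± 0.24 and 1.73 ± 0.29), and SNR57 of the same run did not pass without the filter (0.98 ± 0.38, adjusted p = 0.0949). SNR67 had 1.28 ± 0.44 (adjusted p = 0.0568) and its neighbour SNR53 rose without the filter (1.05 ± 0.28, adjusted p = 0.0199).

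The rise in H4del held within each hybridization day that had both groups. Over the 80 members the median log2 difference was 0.98 on day 2 and 1.53 on day 4, with 78 of 80 above 0 on each, and the median of all probe sets was 0.01 and 0.04. With the hybridization day as a block 34 of the 39 rose, and with the replicate number as a block 36 did, 0 falling in either. The share of all probe sets that passed is not given here for these fits or the next. Larger counts are therefore not read as a stronger rise. With the mean signal of the ribosomal control probe sets as a covariate 5 rose and 1 fell. The risers were SNR128 (1.87), SNR71 (1.54), SNR5 (1.57), SNR73 (2.27) and RDN5-3 (2.10), and RDN25-1 (3765_s) fell by 1.80. In that fit the median was 1.18 over the 18 box C/D snoRNAs, 0.45 over the 6 box H/ACA ones and 0.20 over the 13 ribosomal probe sets. The covariate reads 18S and 25S RNA itself, and its mean log2 signal was 10.54 to 11.51 in H4del and 7.83 to 9.46 in H4WT. It thus moves with the group, so smaller or reversed ribosomal changes in that fit are partly built in.

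Other features of the H4del arrays moved with this rise. OLI1 is a mitochondrially encoded subunit of the ATP synthase. Its brightest probe set had a signal of 1.1 to 4.0 in H4del against 1173.7 to 9736.8 in H4WT. Its other probe set was near background, at 10.4 to 26.3 against 0.6 to 12.7. The brightest probe set of the silent mating-type gene HMRA1 had 475.6 to 935.1 against 6.1 to 52.8. The actin 3 prime to 5 prime signal ratio, a sign of RNA quality, was 1.54 to 1.99 in H4del and 1.48 to 1.82 in H4WT, and that of TBP was 3.21 to 4.68 and 2.68 to 3.20. The part of any of these in the rise was not tested. The histone probe sets could not check the labels, because the sources used here do not say where their probes lie.

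In H3del against H3WT few members passed the test, most of them ribosomal. Of the 39 tested probe sets 5 rose and 0 fell (11 higher and 0 lower at an unadjusted p under 0.05), where 5.21% of all tested probe sets rose and 2.46% fell. Of the 5, 4 were ribosomal, out of 13, and the other was SNR9. All 13 ribosomal probe sets had a fitted change above 0, with a median log2 fold change of 1.16, and 5 of the 10 controls rose, with a median of 1.36. Of the 18 tested box C/D snoRNAs 0 rose or fell in limma, 1 being higher at an unadjusted p under 0.05, and their median was 0.37. Over all 80 without the filter 6 rose, where 5.66% of all probe sets rose and 1.78% fell, SNR66 being the addition, and the median was 0.29 against 0.06 for all probe sets. For 8 of the 80 every H3del array was above every H3WT array, where 8.88% of all probe sets had that order.

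The 5S signal rose in H3del. The 3769_s probe set of RDN5-1 had a signal of 4860.3, 4089.7, 1733.4 and 2970.7 in H3del (replicates 1 to 4) and of 1465.9, 1253.7, 1107.6 and 787.4 in H3WT. The arrays did not overlap, and of the pairs from the same day those of day 4 were the closest. The log2 fold change was 1.49 ± 0.34 (adjusted p = 0.0126), and within days 1, 4 and 5 it was 1.71, 0.64 and 1.89. The 3768_i probe set had 12449.4, 10684.8, 4665.3 and 8158.8 against 5266.4, 4004.5, 3930.0 and 2396.5, with 1.16 ± 0.30 (adjusted p = 0.0256) and an overlap of 1 array. RDN5-3, which rose in H4del, had 0.45 ± 0.30 (adjusted p = 0.457).

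RDN18-1 had 332.4, 130.3, 234.1 and 98.8 in H3del against 49.4, 17.8, 77.1 and 7.0 in H3WT. Every H3del array was higher, and the change was 2.04 ± 0.58 (adjusted p = 0.0409). That change passed under 9 of 17 alternative fits. The 3810_s probe set of RDN37-1 had 799.3, 375.2, 922.5 and 354.5 against 275.5, 153.2, 290.0 and 101.5, with 1.49 ± 0.42 (adjusted p = 0.0417). It passed under 11 of 19 alternative fits. The other RDN37-1 probe sets had between 0.15 ± 0.19 and 1.56 ± 0.58, and those of RDN25-1 0.65 ± 0.56 and 0.30 ± 0.16, none past the threshold. Among the controls, 25S set b had 1332.1, 804.0, 1421.2 and 397.5 against 128.9, 90.1, 374.1 and 50.4, the largest change of the class in H3del (2.66 ± 0.56, adjusted p = 0.00655).

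SNR9, the pseudouridylation guide that also rose in H4del, had 501.6, 473.8, 442.4 and 285.7 in H3del against 280.9, 215.8, 209.7 and 153.1 in H3WT. The lowest H3del array and the highest H3WT array nearly touched. The log2 fold change was 0.93 ± 0.22 (adjusted p = 0.0139), with 0.94, 1.02 and 0.83 within days 1, 4 and 5. The dim SNR66 had 35.6 to 56.4 against 3.9 to 24.4, with no overlap (1.06 ± 0.27, adjusted p = 0.0235, no filter). U14 (SNR128) had 267.8, 344.0, 266.7 and 139.7 against 117.0, 127.5 and 158.0 on H3WT replicates 1 to 3 and less on replicate 4, a change of 0.88 ± 0.27 that did not pass (adjusted p = 0.062). RPR1 had 150.5, 166.7, 16.1 and 119.5 against 21.1, 26.4, 53.9 and 24.4. H3del replicate 3 was below every H3WT array while the other H3del arrays were above all of them, and the change of 1.21 ± 0.46 did not pass (adjusted p = 0.149, no filter). TLC1 had -0.06 ± 0.19 and -0.11 ± 0.35.

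The number of calls in H3del depended on the arrays and on the blocks. With the hybridization day as a block 15 of the 39 rose, 9 of them ribosomal, and with the replicate number as a block 11 did. The share of all probe sets that passed in these fits is not given here. Without H3del replicate 1 no member passed in limma (10 higher and 0 lower at an unadjusted p under 0.05), without H3del replicate 2 or H3WT replicate 4 there were 2 calls, and without H3del replicate 3 or H3WT replicate 2 there were 3. The ribosomal median within days 1, 4 and 5 was 1.24, 0.80 and 1.07. With the control covariate, 0 rose and 2 fell, RDN25-1 (3765_s, -1.05 ± 0.24) and RDN37-1 (3809_s, -1.59 ± 0.47), and the ribosomal median was 0.04. The covariate reads 18S and 25S RNA and was itself 8.73 to 10.14 in H3del and 7.38 to 9.21 in H3WT (mean log2 signal). These ribosomal values are thus partly built in. The actin ratio was 1.54 to 2.89 in H3del and 1.56 to 2.15 in H3WT, and its part in these values was not tested.

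The difference between the tail deletions was tested as the H3 effect minus the H4 effect. It was below 0 for all 39 tested members, and 6 of them passed as lower, where 1.28% of all tested probe sets were lower and 2.40% higher. These were SNR73 (-2.14 ± 0.51, adjusted p = 0.0283), RDN5-3 (-1.78 ± 0.46, 0.0432), SNR5 (-1.72 ± 0.30, 0.00551), SNR128 (-1.59 ± 0.42, 0.0454), SNR71 (-1.51 ± 0.30, 0.013) and SNR4 (-1.29 ± 0.32, 0.0372). In H3del the same RNAs had changes of -0.10 ± 0.33, 0.45 ± 0.30, 0.15 ± 0.20, 0.88 ± 0.27, 0.23 ± 0.19 and 0.12 ± 0.21 in that order. SNR5 makes the contrast plain, at 381.8, 296.7, 255.9 and 278.0 in H3del, inside the 218.7 to 323.4 of H3WT but for replicate 1. The 39 include the 6 that passed the filter only with the H4del arrays, a choice that favours a difference below 0. Over all 80 without the filter the difference was above 0 for 2, and 7 passed as lower and 0 as higher. The share of all probe sets that passed in that fit is not given here. RDN5-3 was not among those 7. The median of the 80 was -0.86, and that of all probe sets 0.02.

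Of the other 12 ribosomal probe sets and of the 10 controls, 0 passed for the difference in limma. At an unadjusted p under 0.05 1 control was lower and 0 of those 12 were. A p above the threshold does not show that their changes were alike: the difference was -1.24 ± 0.88 for RDN18-1 and -0.45 ± 0.52 for the 3769_s probe set of RDN5-1. With the day as a block 14 members passed, all lower in the H3 effect, and with the replicate number as a block 12 did. For these fits, too, the share of all probe sets is not given here. Leaving out 1 array gave 2 to 6. The count was 2 without H3del replicate 4, H3WT replicate 1 or H4del replicate 2, and 3 without H3del replicate 1, H3WT replicate 2, H4WT replicate 1, H4WT replicate 2 or H4del replicate 1.

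Between the wild types, which grew in different media, the 5S probe sets of RDN5-1 were lower in H3WT. The changes were -1.89 ± 0.37 for 3769_s and -1.39 ± 0.33 for 3768_i (adjusted p = 0.00768 and 0.0258), and no array overlapped. They were 2 of 39 tested members, where 2.17% of all tested probe sets were lower and 1.23% higher, and 0 were higher (0 also at an unadjusted p under 0.05, in limma). For 7 of the 80 members every H3WT array was below every H4WT array, where 6.81% of all probe sets had that order. Without H4WT replicate 1 neither passed, and without H4WT replicate 2, H3WT replicate 2 or H3WT replicate 4 there was 1. With the day as a block 3 were lower and 1 was higher, SNR75 at 1.18 ± 0.24. In that fit the RDN5-1 probe sets still passed, at -1.93 and -1.46, and within day 4, which held 1 array of each group, the differences were smaller, at -0.97 and -0.68. Strain and medium cannot be told apart in this contrast. The H3WT and H4WT arrays are also the controls of the tail comparisons, so these values are not independent of them.

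For RDN5-1 the means of the 4 groups ordered, from low to high, as H3WT, H3del, H4WT and H4del. The mean signal of the 3769_s probe set was 1154 ± 285 (SD, n = 4), 3414 ± 1363 (SD, n = 4), 4722 ± 2511 (SD, n = 3) and 16276 ± 1894 (SD, n = 3). H3del and H4WT overlapped, and the difference between them was not tested, whereas H4del was above every other array. RDN5-3 had another order, with a mean of 333 ± 66.8 (SD, n = 4) in H3WT, 420 ± 119 (SD, n = 3) in H4WT, 459 ± 88.8 (SD, n = 4) in H3del and 2258 ± 1505 (SD, n = 3) in H4del, and its lowest 3 groups overlapped.

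Some members were lower on the arrays of days 3 and 5 than on all others. On the 3 arrays of days 3 and 5 (H4WT replicate 2, H3del replicate 4 and H3WT replicate 4) the 25S control set a had 1311.2 to 1760.6, against 9835.0 to 21434.4 on the other 11. The 3765_s probe set of RDN25-1 had 253.6 to 417.3 against 690.3 to 2496.1, and the 3809_s one of RDN37-1 had 50.5 to 58.2 against 140.8 to 1310.3. In all, 5 of the 80 members and 1 of the 10 controls were lower on every array of these days than on every other, where 0.388% of all probe sets were. Days 3 and 5 were put together with the data in hand, so these counts describe that split and do not test it. The other 3 members were RDN37-1 (3807_s), SNR33 and SNR54. For these 6 probe sets the H4WT mean includes an array of the low days and the H4del mean does not. Without H4WT replicate 2 the change of 25S set a in H4del turned from 0.77 ± 1.03 to -0.42, and with the day as a block to -0.31.

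Of 110 tested genes for proteins that make, trim and carry these RNAs, 2 rose (1.82%) and 15 fell (13.6%) in H4del, where 7.79% of all tested probe sets rose and 9.67% fell. The calls in both directions together are thus close to the share over all probe sets. The lists were the core proteins, assembly factors, polymerases and nucleases known from yeast. The 4 box C/D core proteins and the 3 tested box H/ACA ones had 0 calls in H4del in limma (1 and 0 higher and 0 lower at an unadjusted p under 0.05). Of 18 genes of the nuclear exosome and the TRAMP complex, which tags nuclear RNAs for it, 5 fell and 0 rose. These were RRP42 (-0.86 ± 0.17, adjusted p = 0.00441), RRP43 (-0.69 ± 0.19), LRP1 (-0.75 ± 0.23), MPP6 (-0.92 ± 0.25) and PAP2 (-0.81 ± 0.24), of which PAP2 is the TRAMP poly(A) polymerase and LRP1 and MPP6 bind the exosome. The list's median was -0.41 on the log2 scale, and the median of all tested probe sets was -0.08. RRP42 had a signal of 1269 ± 124 (SD, n = 3) in H4del against 2315 ± 272 (SD, n = 3).

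Of 8 tested snoRNP assembly factors, RVB1 (-0.59 ± 0.14) and RVB2 (-0.65 ± 0.21) fell and TAH1 (1.00 ± 0.28) rose. Of 15 RNA polymerase I genes, RRN3, the initiation factor, rose by 1.17 ± 0.33 and RPA43, the subunit that binds it, fell (-0.62 ± 0.21). Of 19 RNA polymerase III genes RPC31 (-0.61 ± 0.19) and TFC8 (-0.69 ± 0.20) fell, and the median was -0.41. Of 6 signal recognition particle proteins SRP54, SRP68 and SEC65 fell, of 10 RNase P and MRP proteins POP7 fell, and of 2 tested telomerase proteins EST3 fell. None of the 14 Sm and Lsm genes passed in limma (0 higher and 2 lower at an unadjusted p under 0.05), nor did any of 11 genes of snoRNA end processing and termination (1 higher and 0 lower). In H3del, RRN10 of the RNA polymerase I activator fell (-0.69 ± 0.19, adjusted p = 0.0343), and no other gene of these lists passed.

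Genes that carry a snoRNA in an intron had 0 rises in limma. TEF4, the host of SNR38, had 7843.5, 8866.6 and 11108.8 in H4del against 7712.2, 7859.4 and 6520.4 in H4WT. RPS22B, the host of SNR44, had 13790.1, 17937.0 and 13998.3 against 16320.0, 18374.1 and 16738.7, and RPL7A, the host of SNR39, had 19856.4, 17256.1 and 20607.5 against 16401.1, 19501.6 and 21556.9. In all of these hosts the arrays of the groups overlapped. Of 8 host genes tested, RPL7B fell (-0.93 ± 0.29, adjusted p = 0.0373), and 1 was higher and 1 lower at an unadjusted p under 0.05.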

How the data were processed

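The 14 arrays were summarised by the submitters with MAS5 (its version is not stated in these sources), per the submitters' processing notes, into signal intensity on a linear scale, and these deposited intensity values were used without rescaling. Per the labels' protocols total RNA was extracted with a commercial yeast kit and labelled with a commercial amplification kit. The hybridization days come from the deposited experiment files. Of 9335 probe sets 60 were controls. Probe set annotation was GEO's platform table, whose 8315 of 8315 gene identifiers matched RefSeq, and RefSeq's gene order gave the adjacent genes. Within a group, Spearman correlations between arrays were 0.968 to 0.992, the lowest between groups was 0.935, and no pair of arrays shared more than 0.343% of values.

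The 10th percentile of yeast signals (16.9) was added before log2 and probe sets at or under the 30th percentile of mean log2 were left out, which left 6492. The 10 ribosomal controls were fitted with them. Linear models (limma 3.58.1 in R 4.3.3, lmFit and eBayes with a trend) gave each group its own mean, which left 10 residual degrees of freedom, with Benjamini-Hochberg adjustment over the probe sets tested. The fit was tested on simulated data. Classes follow published snoRNA families. Named are all ribosomal, spliceosomal and other members, the up to 10 snoRNAs of each class and contrast with the smallest adjusted p among those called, and their neighbours in shared transcripts. Of each protein list the 3 genes with the smallest p in each tail deletion are named where called. LRP1, PAP2 and snoRNAs outside the rule were named after their values were seen. For a gene with several probe sets in those lists the brightest was used. Members and lists were chosen with earlier results of these data known. Tables were read with python 3.11.15, numpy 2.4.6, pandas 2.3.3 and scipy 1.17.1 and plotted with matplotlib 3.10.9.

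Days 1, 2, 4 and 5 held more than 1 array. Day 1 held replicates 1 and 2 of H3del and H3WT, day 2 H4WT replicate 1 and H4del replicates 1 and 2, day 3 H4WT replicate 2, day 4 replicate 3 of every group and day 5 replicate 4 of H3del and H3WT. With the day as a block H4WT replicate 2 does not enter the value. Deviations from group means correlated at 0.263 to 0.638 over the 4 pairs of H3 arrays with a common replicate number, at 0.278 to 0.520 over the 3 pairs of H4 arrays and at 0.268 to 0.501 over the 3 wild-type pairs. A replicate block was therefore fitted too. Over 13 pairs of different groups hybridized on a common day the range was 0.263 to 0.638. On day 1 H3del and H3WT arrays with unlike numbers correlated at 0.541 and 0.352, and those with equal numbers at 0.356 and 0.263. On day 2 the H4 pair with unlike numbers had 0.319 and that with equal numbers 0.303. Within these days the number thus did not mark the closer pairs. Alternatives were other offsets, filters and normalization, no trend, the compared groups alone, the ribosomal control covariate, both blocks, leaving out each array, unmarked probe sets alone and, chosen after seeing the data, leaving out day 4.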

Additional observations from a re-analysis of the deposited data

Results flagged for a closer look

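The 6 members whose changes differed between the tail deletions by the test of the difference itself were SNR73 (-2.14 on the log2 scale, H3 effect minus H4 effect), RDN5-3 (-1.78), SNR5 (-1.72), SNR128 (-1.59), SNR71 (-1.51) and SNR4 (-1.29). Each rose in H4del, and none of them passed the test in H3del in the main fit. The difference passed under all 23 alternatives for SNR5 and for SNR71 and under 17 of 23 for SNR73. It passed under 14 of 24 for SNR4, 12 of 24 for RDN5-3 and 7 of 23 for SNR128. In H3del SNR128 did pass with the day block or the replicate block (0.88 in each). It also passed there without H3del replicate 4 (1.13) and without the day 4 arrays (0.94).

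In 8 of 98 groups of 4 arrays, 1 array stood apart from the rest of its group by Dixon's test, which flags about 1 group in 20 by chance. In H3WT replicate 4 was low for RDN37-1 (3807_s) at 38.3 and for SNR73 at 114.5. H3WT replicate 1 was high for SNR70 at 710.0 and for SNR61 at 352.6. H3WT replicate 3 was high for SNR44 at 1158.8 and for the 25S control set d at 435.9. H3del replicate 3 was high for TLC1 (6951) at 440.1, and H3del replicate 4 was low for the 25S control set a at 1311.2.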

How the results depend on the processing

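In H4del the count of 28 became 53 without the filter (80 members), 11 with a filter at the 50th percentile (18 members), 6 with the ribosomal control covariate (5 higher and 1 lower), and 18 over unmarked probe sets alone (26 members). Leaving out 1 array gave 19 to 29. In H3del the count of 5 became 2 with the stricter filter, 2 with quantile normalization, 2 with the covariate (0 higher and 2 lower), 15 with the day block, 11 with the replicate block and 1 over unmarked probe sets, and leaving out 1 array gave 0 to 7. For the difference the count of 6 became 2 with the stricter filter, 3 with the covariate, 14 with the day block and 12 with the replicate block, and 2 to 6 without 1 array. Between the wild types the count of 2 became 1 with the compared groups alone, 1 with the covariate, 4 with the day block and 0 over unmarked probe sets, and 0 to 2 without 1 array. Among the controls 5 in H3del became 3 with quantile normalization and 3 to 6 without 1 array, and 0 for the difference became 1 with either the day or the replicate block. The replicate block moved no other count by more than 1.5 times. Apart from the fits without the filter in H4del and H3del, whose shares are given above, these counts are not set beside the share of all probe sets in the same fit. The causes of these shifts were not tested, beyond the smaller number of probe sets under the stricter filter and the unmarked set.

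Directions in H4del turned for these probe sets, with the limit on the covariate given above. With the covariate RDN25-1 (3765_s) had -1.80, RDN37-1 -0.36 (3806_s), -0.47 (3807_s), -2.23 (3809_s) and -0.40 (3811_s), SNR13 -0.69 and TLC1 -0.57 (6951) and 0.38 (6952). TLC1 6951 had -0.07 without H4WT replicate 1, -0.24 without H4del replicate 3 and -0.23 without day 4, and -0.24 to 0.22 over the arrays left out in turn. TLC1 6952 had 0.14 with quantile normalization, 0.25 with the day block, 0.23 without H4WT replicate 2, 0.01 without H4del replicate 1 and 0.06 without H4del replicate 2, and -0.20 to 0.23 over the arrays left out in turn. The 25S set a had -0.31 with the day block and -0.42 without H4WT replicate 2. In limma SNR128, SNR71, SNR5 and SNR73 passed in H4del under all 16 alternatives run for each, and RDN5-3 under all 17. The number of arrays, 3 or 4 a group, and signals near background for 41 members limit the precision.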
